A study of Homo sapiens with 8 samples.

Results

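Peak calls of the KOPN-8 SETD2 clone were set against those of its empty vector control, on all autosomes except chromosomes 8 and 13. KOPN-8 is an established B cell precursor leukaemia line that carries a KMT2A-MLLT1 fusion. The control cells carried an sgRNA vector without a guide and are labelled SETD2 WT. The other cells were clone BA, made with an sgRNA to SETD2 and labelled as a heterozygous knockout. Each group had 2 ATAC-seq libraries, and both clone libraries came from 1 clone, so effects of the edit and of picking 1 clone cannot be told apart. The labels do not say whether the control was a clone. The labels name the libraries biological replicates without saying how cultures were kept apart, so a p-value over libraries measures only the spread between them. Members are regions called in both libraries of one arm and in neither of the other. They were 3067 gained and 2704 lost regions, 5771 in all, of 79821 merged regions on these 20 autosomes and 91514 on all chromosomes. Over all chromosomes 3.61% of regions were gained and 3.81% lost. Chromosomes 8 and 13, where lost regions far outnumbered gained ones, were set aside and are compared at the end. Both arms were grown in RPMI1640 with fetal bovine serum. The other line of the study, 697, is also a B cell precursor leukaemia line, with 2 empty vector libraries and 2 of a single SETD2 clone, BM_B, with the same label of heterozygous knockout.

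ATAC-seq uses the Tn5 transposase, which inserts adapters where DNA is free of nucleosomes, so that a peak marks an accessible promoter, enhancer or insulator. SETD2 is the histone H3 lysine methyltransferase that travels with elongating RNA polymerase II and marks the bodies of transcribed genes. In other systems that mark is known to recruit factors that restore nucleosomes behind the polymerase and keep internal start sites closed. No gene annotation of the files' build, hg19, was used here, so regions are described by position, width, neighbours and density rather than by gene, and peaks at SETD2 itself were not examined.

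The 2 control lists held 61274 and 55389 peaks on the described autosomes and the 2 clone lists 60020 and 57535. Read depth is unknown, and the longest list, control 1, and the shortest, control 2, belonged to the same arm. Clone 1 stood apart in the chromosomes on which its private peaks lay. Among the regions called in a single library, 11.5% of those private to clone 1 lay on chromosomes 16, 17, 20 and 22, against 7.82% for control 1, 8.48% for control 2 and 7.69% for clone 2. On chromosomes 4 and 18 lay 9.94% of those private to clone 1, against 12.3% to 12.6% in the other libraries. Regions private to clone 1 also had the most shared regions within 500 kb, a median of 20 against 16 to 18, and the smallest share beyond 100 kb of one, 13.3% against 14.4% to 18.4%. In nearness clone 1 did not stand apart from control 2. Within 10 kb of a shared region lay 39.6% for clone 1, 39.4% for control 2, 32.1% for control 1 and 35.9% for clone 2. The median distance was 15.7 kb for clone 1 and 16.3 kb for control 2, against 22.5 kb for control 1 and 20.5 kb for clone 2. Distances, density, chromosome ratios, neighbours and the window ratios are therefore given with libraries left out. Leaving out a library also loosens the call of its arm to a single list, so that an effect of that library and one of the looser rule cannot be told apart.

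Gained regions made up 3.84% of all regions described and lost regions 3.39%. These are the percentages called in each direction, and the numbers gained and lost were close. Another 39973 regions (50.1%) were called in all 4 libraries and are termed shared. A further 20952 (26.2%) were called in 1 library, 8495 (10.6%) in 3 and 4630 (5.80%) in 1 library of each arm. These 3 classes each pool 4 call patterns, whereas gained and lost regions are 1 pattern each. Near misses outnumbered members, but each near miss count pools either library of the other arm, whereas each member class is a single pattern. The counts are therefore not like for like. Both clone libraries and exactly 1 control called 4616 regions, and both controls and exactly 1 clone library called 3879.

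Gained and lost regions had nearly the same width. The median peak in gained regions was 253 bp in clone 1 and 247 bp in clone 2, and that in lost regions 257 bp in control 1 and 245 bp in control 2. The means were 250 ± 4.24 bp for gained (SD, n = 2) and 251 ± 8.49 bp for lost regions, a difference smaller than either SD. Both classes lay near the lower limit of the lists, in which no peak is narrower than 200 bp. At least 1 of the 2 peaks was exactly that wide in 636 gained and 551 lost regions. Regions called in 1 library had a median of 217 to 221 bp in the 4 lists and shared regions one of 403 to 436 bp. Members were thus wider than private regions and narrower than shared ones. Their width was not particular to them, since regions called in 3 libraries had medians of 248 to 259 bp. Regions called in 1 library of each arm had 224 to 233 bp. Broad members were rare, since both peaks reached 500 bp in 34 gained regions (1.11%) and 33 lost ones (1.22%).

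**Figure D1:**
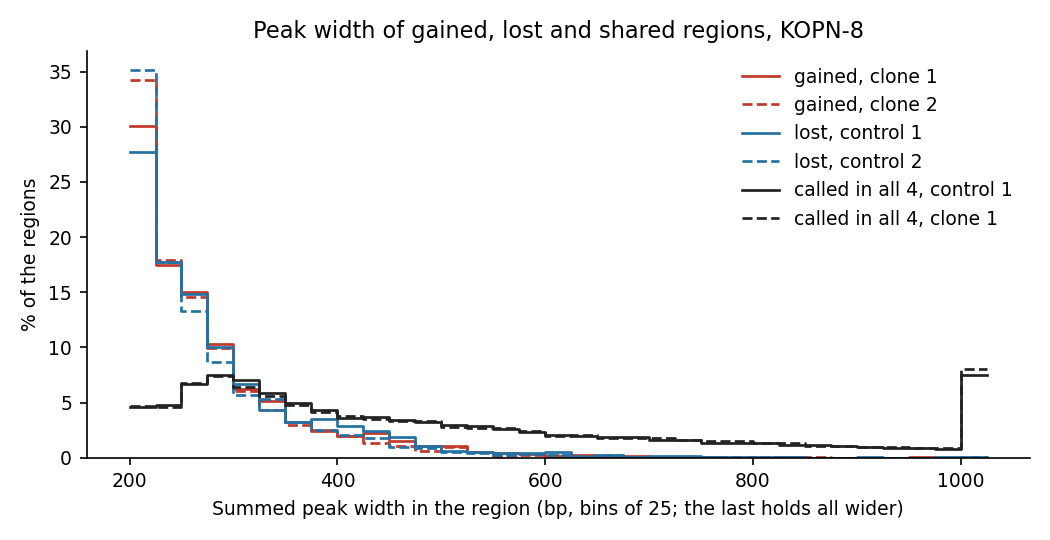
Distribution of summed peak width per region in bins of 25 bp, as a percentage of the regions of a class, for gained regions in the 2 clone libraries, lost regions in the 2 controls and shared regions in 1 library of each arm. Gained and lost regions pile up just above 200 bp, with medians of 245 to 257 bp, whereas shared regions spread to far greater widths, with all above 1000 bp in the last bin.

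Members were weak peaks, and their width followed their strength. The deposited value of a peak, read as fold enrichment over local background and belonging to the authors, was ranked within each list. The smaller of the 2 percentiles had a median of 19.6 for gained and 20.0 for lost regions. Both peaks were in the strongest 50% of their list in 138 gained (4.50%) and 147 lost regions (5.44%), and above the 75th percentile in 12 and 11. The lowest folds among gained regions were 2.13 and 2.03 in the 2 clone lists. Width remained lower than that of shared peaks in the same band of 25 percentiles. Strength was not matched within a band, and from band to band members became fewer upward while shared peaks became more numerous. Below the 25th percentile of the lists gained peaks had medians of 229.5 and 229 bp against 264 and 262.5 bp for shared peaks of the same clone libraries. Between the 50th and the 75th percentile these were 312 and 301 bp against 383 and 373 bp. Lost peaks showed the same order against the controls, with 311 and 310 bp against 368 and 366 bp between the same percentiles.

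Gained regions lay closer to shared regions than lost regions did, but this order turned without clone 1 and narrowed without clone 2. The median distance from edge to edge was 10.7 kb for gained and 15.0 kb for lost regions. It was 9.98 kb from one shared region to the next and 18.9 kb for regions called in 1 library. Regions called in 3 libraries had 11.9 kb and those called in 1 library of each arm 12.9 kb, both between gained and lost regions. Within 10 kb of a shared region lay 47.9% of the gained regions (95% exact binomial interval 46.1 to 49.6) and 40.2% of the lost ones (38.4 to 42.1). Such intervals cover counting error only. The corresponding shares were 50.1% for shared and 36.3% for single-library regions. They were 45.6% for regions called in 3 libraries and 43.5% for those called in 1 library of each arm. The gained median was the smaller one on 18 of 20 chromosomes, the exceptions being chromosomes 10 and 15. Far from any shared region, beyond 100 kb, were 197 gained (6.42%) and 324 lost regions (11.98%). Without control 1 the shares within 10 kb were 48.0% and 41.0%, and without control 2 they were 52.3% and 36.2%. Without clone 2 they were 43.9% and 42.3%, and without clone 1 the order turned, to 42.6% of gained and 44.8% of lost regions. The shares beyond 100 kb likewise became 10.1% of gained and 11.5% of lost regions without clone 2, and 11.9% and 8.81% without clone 1. The gained median was then the smaller one on 12 and on 8 chromosomes. Without control 1 or control 2 it was smaller on 16 and on 18.

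The weakest members lay closest to shared regions. Among gained regions whose weaker peak was below the 10th percentile of its list the median distance was 5.26 kb, and 61.2% lay within 10 kb. Those in the strongest 50% of both lists had a median of 18.9 kb, with 31.9% within 10 kb. Lost regions followed the same course, from 6.22 kb and 59.0% below the 10th percentile to 25.9 kb and 23.8% among the strong ones. Within 1 kb of a shared region lay 382 gained regions (12.5%) and 273 lost ones (10.1%), against 11.96% of single-library regions and 14.6% of shared ones.

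Gains and losses were divided between dense and sparse stretches of open chromatin. A gained region had a median of 23 shared regions within 500 kb on either side and a lost region 18, the same as single-library regions, while shared regions had 23. Regions called in 3 libraries had 22 and those called in 1 library of each arm 21. Of 5924 regions with at most 5 such neighbours, 132 (2.23%) were gained and 286 (4.83%) lost. Of 19615 regions with 31 or more, 788 (4.02%) were gained and 455 (2.32%) lost. Gained over lost as a log2 ratio, relative to that over all described regions, went from -1.29 in the sparsest to 0.61 in the densest class. Without clone 1 it was 0.32 in the sparsest and 0.06 in the densest class, so the gradient was not seen. Without clone 2 it went from -0.29 to 0.42, without control 1 from -1.54 to 0.51, and without control 2 from -1.86 to 0.75.

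**Figure D2:**
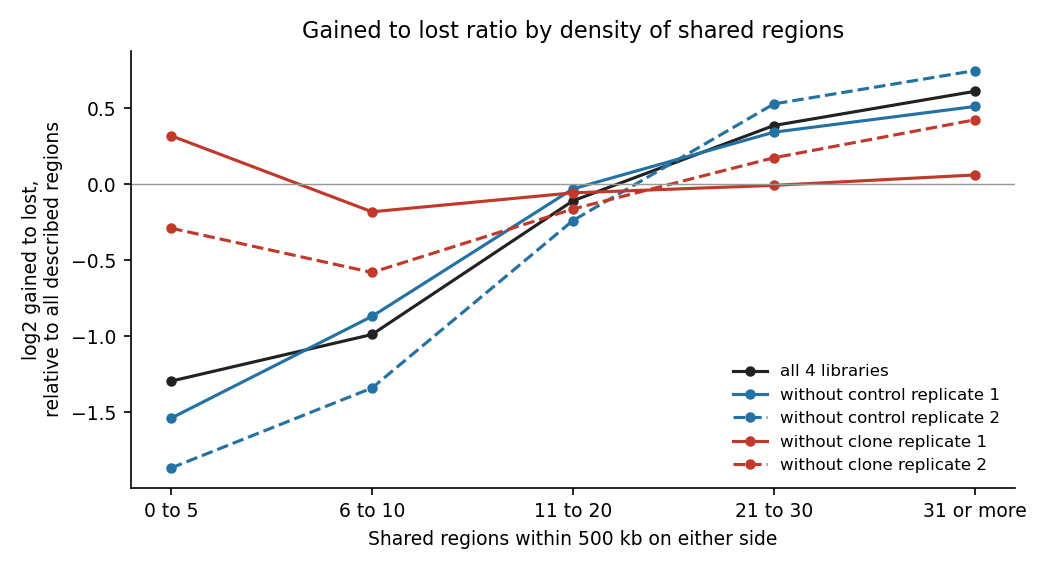
Log2 ratio of gained to lost regions, relative to all described regions, in 5 classes of the number of shared regions within 500 kb on either side, with all 4 libraries and with each left out. The ratio goes from -1.29 to 0.61 with all libraries and ends near 0 without clone replicate 1.

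By chromosome, gained regions outnumbered lost ones on 14 autosomes, lost ones led on 5, and numbers were equal on chromosome 21. The highest ratio was on chromosome 22, with 66 gained (5.60% of its regions) and 25 lost (2.12%). Chromosomes 17 (116 gained and 61 lost), 16 (100 and 58) and 20 (104 and 69) came next. Chromosomes 18 (67 and 91) and 4 (173 and 229) had the lowest ratios. The peaks themselves showed how far each library took part. On chromosome 22 control 1 and control 2 listed 899 and 810 peaks, 1.47% and 1.46% of their peaks on the described autosomes, and clone 1 and clone 2 had 1010 and 862, or 1.68% and 1.498%. Both clone shares were above both control shares, and clone 2 only slightly so. On chromosome 17 the shares were 3.52% and 3.62% for control libraries and 3.78% and 3.61% for clone libraries, so the arms overlapped. On chromosome 4 they were 6.59% and 6.43% against 6.11% and 6.32%, and on chromosome 18 they were 2.80% in each control against 2.68% and 2.73%, with no overlap. Over the 20 autosomes the clone shares lay above both controls on 6, below both on 4 and overlapped on 10. Without clone 1 the same log2 ratio, gained over lost relative to all described regions, moved from 1.20 to 0.28 on chromosome 22. It moved from 0.74 to 0.0029 on chromosome 17, from 0.60 to 0.055 on 16, from 0.41 to -0.081 on 20, from -0.59 to -0.0083 on 4 and from -0.62 to -0.17 on 18. With any other library left out all 6 chromosomes kept the sign they had with 4 libraries.

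**Figure D3:**
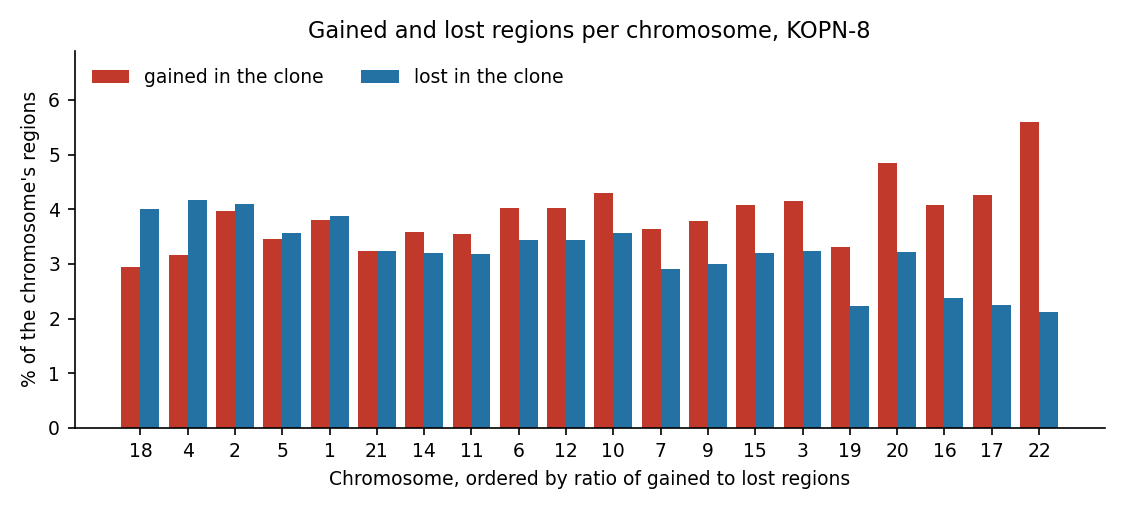
Gained (red) and lost (blue) regions as a percentage of each autosome's merged regions, ordered by the ratio of gained to lost. The bars are close on most chromosomes and stand apart on 22 (5.60% gained, 2.12% lost), 17, 16 and 20 at one end and on 18 and 4 at the other.

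Within chromosomes, most members stood alone, and neighbours of the same direction were somewhat more frequent than next to shared regions. Along the ordered regions, 6.13% of the regions next to a gained region were gained and 2.36% were lost. Next to a lost region 6.29% were lost and 2.68% gained. Next to a shared region, by comparison, 3.90% were gained and 3.06% lost. Other classes also had their own kind as neighbours more often than shared regions had that kind. The shares were 32.6% against 23.1% for single-library regions, 11.5% against 10.7% for those called in 3 libraries and 6.26% against 5.75% for 1 of each arm. Without clone 1 12.2% of the regions next to a gained region were gained, against 9.44% next to a shared one, and for lost regions these were 8.62% and 6.24%. The order was the same with any other library left out. Another gained region lay within 50 kb of 798 gained regions (26.0%), and another lost region within 50 kb of 623 lost ones (23.04%). Regions called in 1 of each arm, a more numerous class, gave 24.7%. Chaining regions of one direction over gaps of up to 50 kb gave 344 gained clusters, of which 282 were pairs, 51 triples and 11 larger, with a median span of 24.8 kb. Lost regions gave 267 clusters, of which 216 were pairs, 40 triples and 11 larger, with a median span of 22.96 kb. No shared region lay within 158 of the gained and 147 of the lost clusters. Outside any cluster were 2299 gained and 2105 lost regions.

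The largest gained cluster held 7 regions over 103 kb on chromosome 10 from 33383205 to 33486229 (hg19, counted from 1). The controls listed 4 and 2 peaks there and the clone 10 and 12, and 697, the other leukaemia line of the study, listed 2 and 4 in its controls and 4 and 5 in its own SETD2 clone. A second, of 6 regions, lay on chromosome 16 from 85932129 to 86044777, with 4 and 2 control peaks against 10 and 11. Clusters of 5 lay on chromosome 12 from 105670166 to 105751874 (6 and 6 against 12 and 11) and on chromosome 7 from 2070747 to 2161330 (8 and 8 against 14 and 14). The chromosome 7 cluster also held 7 shared regions, so gains there filled in a stretch already open. A cluster of 4 spanned only 29.8 kb on chromosome 4 from 40827445, with 2 and 2 peaks against 7 and 6. Like counts in both clone libraries follow from the rule, which asks for a peak in each.

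Among lost clusters the largest held 6 regions over 96.6 kb on chromosome 4 from 149856291 to 149952888, where both controls listed 7 peaks and both clone libraries 1. In 697 the same interval held 3 and 4 control and 4 and 6 clone peaks. On chromosome 5 a cluster of 5 from 52220335 to 52349168 had 8 and 7 control peaks against 1 and 1. A tight cluster of 4 on the same chromosome, from 134758965 to 134773580, had 5 and 5 against 1 and 1. The clone listed 0 peaks in either library in 2 further clusters of 4, where control 1 had 5 peaks and control 2 had 4. One spans chromosome 2 from 148248241 to 148269255. Its counterpart lies at chromosome 1 from 69254512 to 69285381. Regions of the chromosome 1 cluster had a median distance of 180 kb to a shared region, and those of the chromosome 2 cluster 124 kb.

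**Figure D4:**
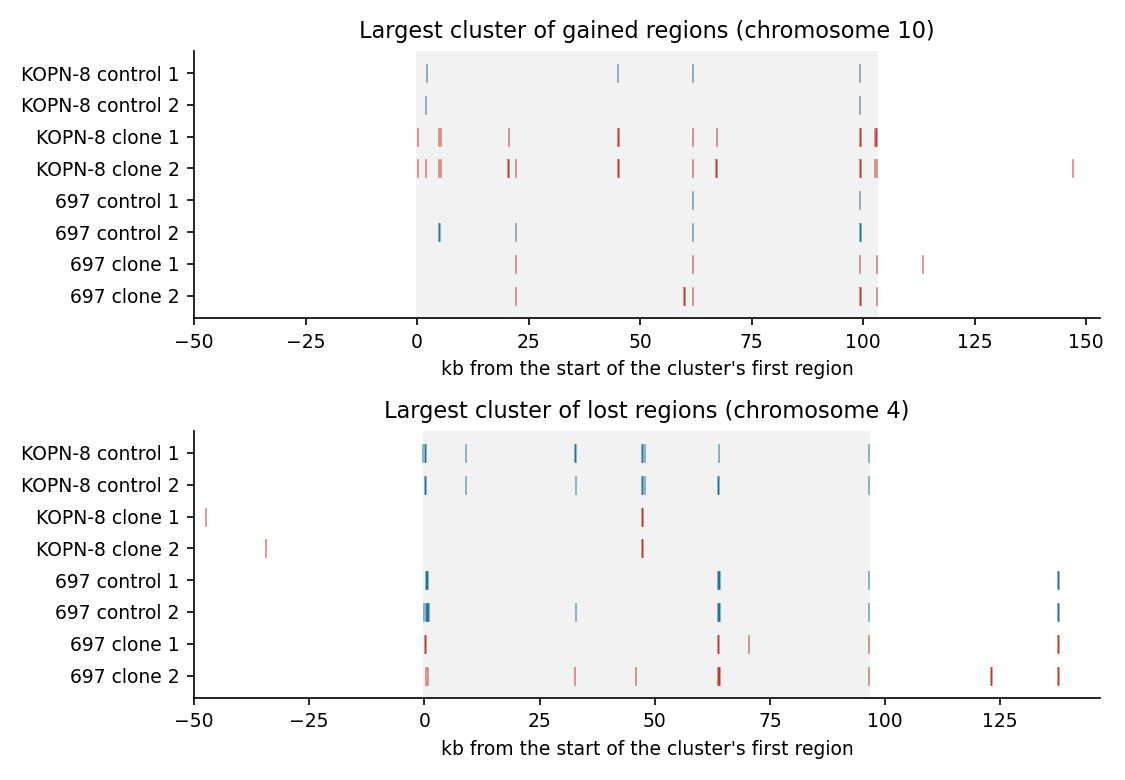
Positions of peaks (bars) in the 8 libraries over the largest gained and the largest lost cluster, in kb from the start of the first clustered region, with the cluster's span shaded. In the gained cluster the KOPN-8 clone lists 10 and 12 peaks against 4 and 2 in the controls, and in the lost cluster 1 and 1 against 7 and 7, while 697 has peaks in both.

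At a larger scale, 477 windows of 5 Mb with at least 60 regions were compared. The clone's share of peaks relative to the controls had a median of 0.998 and ranged from 0.625, on chromosome 5 between 25 and 30 Mb, to 1.22, on chromosome 3 between 135 and 140 Mb. The strongest lean to gains was on chromosome 3 between 40 and 45 Mb, with 12 gained and 0 lost of 134 regions, and with 98 and 87 control against 113 and 111 clone peaks. Next was chromosome 2 between 170 and 175 Mb, with 14 gained and 3 lost of 125, and 86 and 80 peaks against 105 and 89. On chromosome 6 between 35 and 40 Mb 20 were gained and 3 lost of 198, with 135 and 130 peaks against 163 and 160. Both clone libraries exceeded both controls in each of these windows. Such separation was common. Of all 477 windows, both clone shares lay above both control shares in 138 and below both in 140. The strongest lean to losses was on chromosome 4 between 20 and 25 Mb, with 0 gained and 13 lost of 98 regions, and 75 and 57 peaks against 49 and 55. On chromosome 18 between 35 and 40 Mb 0 were gained and 7 lost of 60, with 50 and 42 peaks against 30 and 37. On chromosome 11 between 90 and 95 Mb 2 were gained and 17 lost of 160, with 127 and 110 against 102 and 93. These windows were chosen for their lean, so the values are a description. With any 1 library left out the ratio of clone to control share stayed above 1 in the former 3 windows, from 1.09 to 1.25, and below 1 in the latter 3, from 0.635 to 0.861. The lowest of the former, 1.09, was that of chromosome 2 without clone 1, where all libraries gave 1.16. In all of these windows every ratio of 1 clone library to 1 control library already lay on the same side of 1. The side was therefore fixed in advance, and only the size of the ratio could vary.

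Shared regions, which are never members, offered a measure that the rule had not used. Those picked for lying near a member depend on calls in the same lists, so their widths may not be independent of the calls. Their mean log2 peak width was 8.83 and 8.77 for control and 8.85 and 8.81 for clone libraries, a difference of 0.030 that was smaller than the SD of the controls (0.044, exact permutation over libraries, two-sided p = 0.667, n = 2 per group). For the 2115 shared regions within 10 kb of a gained and of no lost region, the log2 width was taken relative to all shared regions of the library. This gave -0.049 and -0.052 for the 2 controls, with -0.0066 and -0.027 for the 2 clone libraries. Those regions were thus slightly wider in both clone libraries, by 0.034 on the log2 scale (exact permutation, p = 0.333, n = 2 per group, the smallest that 2 against 2 can give). With regions within 5 kb the difference was 0.0080 (exact permutation, p = 0.667, n = 2 per group), and with 1 library left out it was 0.015 to 0.022. For the 1439 shared regions beside a lost and no gained region it was -0.043 in each control and -0.054 and -0.060 in the clone, a difference of -0.013 with no overlap (exact permutation, p = 0.333, n = 2 per group). Within 5 kb that beside lost regions was 0.0088, and without clone 1 it was 0.0022. An exact permutation of 2 against 2 cannot pass a threshold of 0.05.

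Lists of 697, which took no part in choosing the members, showed how many of these sites open in another B cell precursor leukaemia. Gained regions were called in 24.5% and 30.8% of cases in the 697 controls and in 29.2% and 36.7% in the 697 clone. Lost regions were called in 28.4% and 35.1% against 31.25% and 37.5%. Both fell between single-library regions (16.1% to 24.2%) and shared regions (64.4% to 74.9%). Regions called in 1 library of each arm were close to members, with 27.4% and 34.4% in the 697 controls and 32.0% and 39.5% in its clone. In no 697 library were 1772 gained (57.8%) and 1476 lost regions (54.6%) called. The corresponding shares were 53.2% for regions called in 1 library of each arm, 68.4% for single-library and 21.4% for shared regions. The 697 arms overlapped in both directions (exact permutation over 697 libraries, two-sided p = 0.667 for each, n = 2 per group), and the shares rose with list length from 57154 to 76495 peaks. With lists of equal length gained regions were called in 25.1% and 27.9% in the 697 controls and 28.5% and 31.7% in its clone, which did not overlap (exact permutation, p = 0.333, n = 2 per group). Lost regions then gave 30.03% and 30.4% against 29.8% and 30.03% (exact permutation, p = 0.667, n = 2 per group). Lists of equal length were not compared for the other classes. With full lists, regions called in 3 libraries gave 34.6% and 42.5% in the 697 controls against 39.6% and 48.5% in its clone. Shared regions gave 64.4% and 70.9% against 69.4% and 74.9%, so higher shares in the 697 clone were then not confined to gained regions.

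Single strong members showed the range of surroundings. The strongest and widest gained region, on chromosome 10 from 89264379 to 89265296, had peaks of 849 and 864 bp with folds of 12.7 in each clone list. It lay 161 kb from the nearest shared region, with 7 shared regions within 500 kb, and all 4 libraries of 697 called it. The next strongest, on chromosome 10 from 101418902 to 101419392, was called in none of them, and neither was that on chromosome 6 from 6943048 to 6943523. On chromosome 14 a gained region from 96064113 to 96064603 had another gained region 13.1 kb away, and on chromosome 3 one from 141943711 to 141944662 was 952 and 801 bp wide and was called in both 697 controls and neither 697 clone library. Other wide gained regions were on chromosome 22 from 36801347 (769 and 767 bp), on chromosome 9 from 137781533 (625 and 632 bp) and on chromosome 9 from 122624138 (642 and 623 bp). Among strong gained regions the most isolated was on chromosome 12 from 23689211 to 23689603, 215 kb from a shared region and called in all 4 libraries of 697. After it came one on chromosome 4 from 162572005 to 162572355, 176 kb away and called in none. The closest was on chromosome 3 from 58571141 to 58571443, only 227 bp away.

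The strongest lost region lay on chromosome 18 from 34704442 to 34704830, with peaks of 378 and 375 bp, 100 kb from a shared region and called in no 697 library. On chromosome 4 the region from 90391002 to 90391593 had folds of 13.8 and 11.3 and a shared region 11.8 kb away, whereas that from 95822376 to 95823039 stood 178 kb away. On chromosome 1 the region from 118679037 to 118679489 was 206 kb away. On chromosome 9 the lost region from 16277512 to 16277895 had another 9.50 kb off and closed a lost cluster of 4 from 16207216, in which the controls listed 5 and 4 peaks and the clone 0 and 0. The widest lost region, on chromosome 4 from 165856589 to 165857669, had peaks of 1020 and 1058 bp, folds of only 6.31 and 5.38, and was called in all 4 libraries of 697. Others above 700 bp were on chromosome 14 from 36366755 (920 and 1019 bp), chromosome 3 from 83506330 (829 and 838 bp), chromosome 11 from 35984276 (771 and 763 bp) and chromosome 9 from 16092401 (743 and 744 bp). The one on chromosome 3 was also the most isolated strong loss, 476 kb from a shared region. It was followed by a region on chromosome 7 from 80762642 to 80763555, at 327 kb, and by one at chromosome 10 from 29240285 to 29240899, at 287 kb, neither of which was called in 697. The nearest strong loss was 486 bp away, on chromosome 6 from 107143103 to 107143435.

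The 651 lost regions of chromosomes 8 and 13 were of like width, with medians of 259 and 254 bp in the controls, and lay farther from shared regions. Their median distance to a shared region was 21.3 kb against 15.0 kb for lost regions elsewhere. This difference is a description. On chromosome 8 lost regions made up 7.58% and gained ones 1.32% of all regions, and on chromosome 13 these were 7.20% and 1.82%.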

How the data were processed

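ATAC-seq peak lists of 8 libraries were used, 4 of KOPN-8 for the comparison and 4 of 697 as an outside readout. The submitters' processing notes name Bowtie2, MACS2 and hg19, and each library has its own list. Their versions and settings, as well as the treatment of duplicates and of the Tn5 offset, are not stated in those notes. The deposited value of each peak was read as a fold ratio over local background, because its common values repeat at even steps. No header names it, and the authors' value was used only to describe and rank peaks within a list. Peaks of the 4 KOPN-8 lists sharing at least 1 bp were merged, and a library called a region holding a peak of its own. Distances run from edge to edge, and percentiles were taken within a list. Library values were compared by two-sided exact permutation. Counts and distances were computed with Python 3.11.15, numpy 2.4.6, pandas 2.3.3 and scipy 1.17.1. The calling code was tested on simulated lists over 79821 regions, where 200 of 200 planted gains and 200 of 200 planted losses were recovered and 300 of 300 distances were right. Planted peaks were always present in one arm and absent from the other. The test therefore checks the code and not how reliable the calls of members are.

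Regions are named per direction: the 5 with the highest smaller percentile, the 5 widest by the narrower peak, the 3 farthest from a shared region among those in the strongest 50% of both lists, the 5 largest clusters (ties by shorter span) and the 3 windows of 5 Mb that lean most. The nearest strong region of each direction was chosen after its values were seen. The members, lists and named regions were chosen with earlier results of these data known. Alternatives were calls covering 50% of a region, lists of equal length (63585 peaks in KOPN-8, 57154 in 697) and other distances. Others were members with both peaks in the strongest 50% of their lists, a replicate block, and leaving out every library in turn. The gained against lost contrasts with a library left out, by nearness, chromosome, density, neighbours and window, were added after seeing the data. Gene context, planned gene lists, lineage markers and motifs need hg19 annotation or sequence and were not analysed here.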

Additional observations from a re-analysis of the deposited data

Results flagged for a closer look

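Shares of peaks on 2 chromosomes moved in opposite directions in the clones of the 2 lines, in every library, relative to their own controls. On chromosome 21 the ratio of clone to control share was 0.963 in KOPN-8 and 1.16 in 697. On chromosome 10 it was 1.01 in KOPN-8 and 0.971 in 697. These 2 chromosomes were picked for their opposite directions. By the same comparison, shares on chromosomes 15, 16, 20 and 22 were higher in the clones of both lines, and those on 2 and 4 lower. On chromosome 22 the 697 controls had 0.86% and 0.89% and the 697 clone 1.09% and 1.12%. The difference between the lines was not tested.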

How the results depend on the processing

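Keeping only members with both peaks in the strongest 50% of their lists left 138 gained and 147 lost regions. Absence and shared regions were still judged on the full lists. Median widths were 347 and 348.5 bp, and 31.9% and 23.8% lay within 10 kb of a shared region. Counting only other such members, 0% and 6.80% had another of their direction within 50 kb. Counting all members, 26.8% and 33.3% did. With calls covering 50% of a region the widths were 263.5 and 264.5 bp, the near shares 44.9% and 36.2%, and the clustered share of gained regions 29.4%. With lists of equal length 37.5% of lost regions were near. Within 5 kb lay 30.4% and 24.9% and within 20 kb 66.1% and 57.3%, and clustered shares were 14.2% and 11.9% at 20 kb and 39.7% and 33.1% at 100 kb. Leaving out 1 library loosens the rule, and gained regions then numbered 4622 to 9270 and lost ones 4501 to 9619. Widths ranged from 228 to 255.5 bp and from 227 to 255 bp, near shares from 42.6% to 52.3% and from 36.2% to 44.8%, and clustered shares from 33.4% to 43.6% and from 30.1% to 41.9%. The difference in width beside lost regions turned to 0.0088 within 5 kb and ranged from -0.016 to 0.0022 with a library left out. The 697 clone minus control difference for lost regions turned from 2.64 to -0.285 percentage points with equal lists, and ranged from -0.721, without 697 control 1, to 6.01. The gained minus lost difference in near share ranged from -2.25 points, without clone 1, to 16.2, without control 2. The log2 lean of chromosome 20 ranged from -0.081, without clone 1, to 0.48 over left-out libraries, and was 0.88 with the strongest 50%. Over left-out libraries the lost minus gained share beyond 100 kb ranged from -3.14 to 10.3 points, lowest without clone 1 and highest without control 2, and the gained median distance was the smaller one on 8 to 18 of the chromosomes, fewest without clone 1. The cause was not tested.

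Replicate numbers are shared between arms, but nothing in the labels ties equal numbers together, and the deviations of equal numbers in log2 width over 39973 shared regions had a correlation of -0.0061. With a replicate block the 3 width differences were 0.030, 0.034 and -0.013, each with an exact p = 0.5 over sign flips (n = 2 pairs), the smallest possible, and no call changed. Precision is limited by 2 libraries per group and by unknown read depth.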
